A study of Mus musculus with 9 samples.

Results

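The expression of 8 genes of the Notch pathway was examined across the stromal cells of the mouse knee, out of 54534 genes listed for each library. They were chosen by name and comprised the receptors *Notch1*, *Notch2* and *Notch3*, the ligands *Jag1* and *Dll1*, and the target genes *Hes1*, *Hey1* and *Heyl*. All 8 were found in every library. Notch receptors are activated when a Jagged or Delta-like ligand on a neighbouring cell binds them, after which ADAM proteases and gamma-secretase release the intracellular domain. This fragment joins the DNA-binding protein Rbpj in the nucleus and switches on transcriptional repressors of the Hes and Hey families. *Notch3* is best known in the mural cells (smooth muscle and pericytes) that wrap blood vessels, where it supports their maturation, and in synovium the pathway is studied as a signal between vessels and the fibroblasts around them.

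The cells came from knees of *Gdf5-Cre;Tom;Pdgfrα-H2BGFP* mice aged 11 to 12 weeks, in which Gdf5-Cre permanently marks the descendants of the embryonic joint interzone with tdTomato (Tom) and the *Pdgfrα* promoter drives a nuclear green fluorescent protein (GFP). All groups carried the same alleles. Tom+ cells (Gdf5 lineage) and Tom-GFP+ cells (*Pdgfrα*-expressing cells outside the Gdf5 lineage) were sorted from uninjured joints (2 Tom+ libraries and 1 Tom-GFP+ library) and from joints 6 days after a surgical scratch of the articular cartilage of the trochlear groove (4 Tom+ and 2 Tom-GFP+ libraries). The Tom+ gate took any cell with a history of *Gdf5*-Cre activity, and the Tom-GFP+ gate only cells with *Pdgfrα* promoter activity, so that vascular and immune cells outside the Gdf5 lineage were largely left out by design.

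Libraries held 2866464 to 15033902 unique molecular identifiers (UMIs, counts of distinct RNA molecules), and 4788 of 5161 barcodes were kept as cells. The median cell of a library had 8050.5 to 8647 UMIs in the steady state and 12223 to 18567 after injury. The share of UMIs on genes annotated as pseudogenes was 2.07% to 3.29% in the 3 steady-state libraries and 0.519% to 1.05% in the 6 injured libraries, a split that cannot be told apart from injury. Pairs of libraries shared 0 to 2 cell barcodes.

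Cells were assigned to classes by marker genes, none of which was one of the 8. *Thy1*+/*Cd34*+ fibroblasts (sublining, 2542 cells) were the reference. They were the cells with a UMI of *Thy1* or of *Cd34* that met no other gate. *Thy1* was detected in 80.1%, *Cd34* in 91.3% and *Pdgfra*, which was not required, in 84.0% of them. The other classes were lining fibroblasts (752 cells), *Prg4*+ cells without *Clic5* and *Thy1* (488 cells), tenocyte-like (280 cells), osteoblast-like (113 cells), immune-like (108 cells), mural-like (82 cells), chondrocyte-like (68 cells) and endothelial-like cells (6 cells), and 54 cells carried markers of more than 1 class. *Myh11*, a contractile protein of smooth muscle, was detected in 72.0% of mural-like cells and in 0.197% of the reference, and *Rgs5* in 93.9% and 1.53%. *Pdgfra* was detected in 2.44% of mural-like cells and tdTom in 96.3%. They were present in all 6 Tom+ libraries (2 and 6 cells in the steady state and 39, 23, 6 and 6 after injury) and in no Tom-GFP+ library, and the sort gates alone can set this difference.

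The 5′ flanks of *Notch3* and *Jag1* are shown because they are the receptor and the ligand that were called both in mural-like and in lining cells. They are the 250 bases before the RefSeq transcription start (GRCm38.p6), from chr17:32166891-32167140 and chr2:137116521-137116770, both on the minus strand. RefSeq windows were found for 5 of the 8 genes (*Notch1*, *Notch2*, *Notch3*, *Jag1*, *Dll1*). Capitals mark GC boxes (GGGCGG on either strand), which bind Sp family factors.
Notch3: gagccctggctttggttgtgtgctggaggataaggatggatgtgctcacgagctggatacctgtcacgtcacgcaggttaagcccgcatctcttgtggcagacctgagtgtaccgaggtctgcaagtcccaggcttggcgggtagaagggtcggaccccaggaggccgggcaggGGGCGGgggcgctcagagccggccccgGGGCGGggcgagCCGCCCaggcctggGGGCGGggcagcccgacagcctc
Jag1: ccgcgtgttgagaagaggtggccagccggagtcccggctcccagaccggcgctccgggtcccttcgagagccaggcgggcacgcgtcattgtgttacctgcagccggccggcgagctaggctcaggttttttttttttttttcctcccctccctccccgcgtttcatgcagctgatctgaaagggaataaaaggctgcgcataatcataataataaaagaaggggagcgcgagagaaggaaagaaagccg
The *Notch3* window held 4 GC boxes and the *Jag1* window 0, and 32.7% of all 32851 windows of this length held at least 1. The core of the Rbpj site (TGGGAA on either strand) occurred in none of the windows of these 5 genes and in 21.6% of all windows. The CArG box, the site of serum response factor in many smooth muscle genes, also occurred in none of them and in 1.47% of all windows. These counts describe the letters of the windows only.

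Of the receptors, *Notch3* (ENSMUSG00000038146, GRCm38 chromosome 17, 32120820 to 32166852, minus strand) was concentrated in mural-like cells. At least 1 UMI was found in 95.1% of them (exact binomial 95% interval 88.0% to 98.7%) at a median depth of 8470.5 UMIs, against 3.15% (2.50% to 3.90%) of reference fibroblasts at 10691.5 UMIs. After thinning every cell to 5000 UMIs the shares were 86.3% and 1.38%, with 9 and 229 shallower cells left out. On the CPM scale, which divides the UMIs of a gene by all UMIs of the summed cells and so corrects for depth, *Notch3* reached 382 and 479.9 in the mural-like cells of Tom+ injured libraries 1 and 2, the 2 with at least 10 such cells. In the same libraries the reference was at 3.59 and 4.96 CPM. In the other 4 Tom+ libraries, with 2 to 6 mural-like cells each, *Notch3* lay between 419 and 845 CPM, so that mural-like cells and reference fibroblasts did not overlap in any library. *Notch3* UMIs were found in 0 of 108 immune-like cells, which allows a share of up to 2.78% (exact 95% limit 3.36%), at a median depth of 8300.5 UMIs. Of these cells 47 and 25 came from Tom+ injured libraries 3 and 4, which held 6 mural-like cells each. The 3.15% of the reference lay under the exact limit and could not be told apart from background by this comparison.

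*Notch3* was also followed over the number of mural markers a cell carried. Over all kept cells, its level was 3.30, 1.87, 3.56 and 9.24 CPM in cells with 0, 1, 2 and 3 of the 8 mural markers. It was 277.6 CPM (95% Poisson interval 151.8 to 465.8) in the 7 cells with 4 markers, 383 CPM in the 30 cells with 5 or 6 and 391 CPM in the 69 cells with 7 or 8. Intervals here and below cover counting error only. All 6 UMIs behind the value at 3 markers lay in 2 of the 3 such cells that met no gate (440.6 CPM), while the 4 reference fibroblasts with 3 markers held none. Among the cells that met no gate the level was 78.4 CPM with 2 markers, from 9 UMIs in 1 cell, and 230.3 CPM with 4 markers. *Heyl* lay at 1.14 to 6.16 CPM with up to 3 markers and at 88.6 to 139 CPM with 4 or more.

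**Figure D1:**
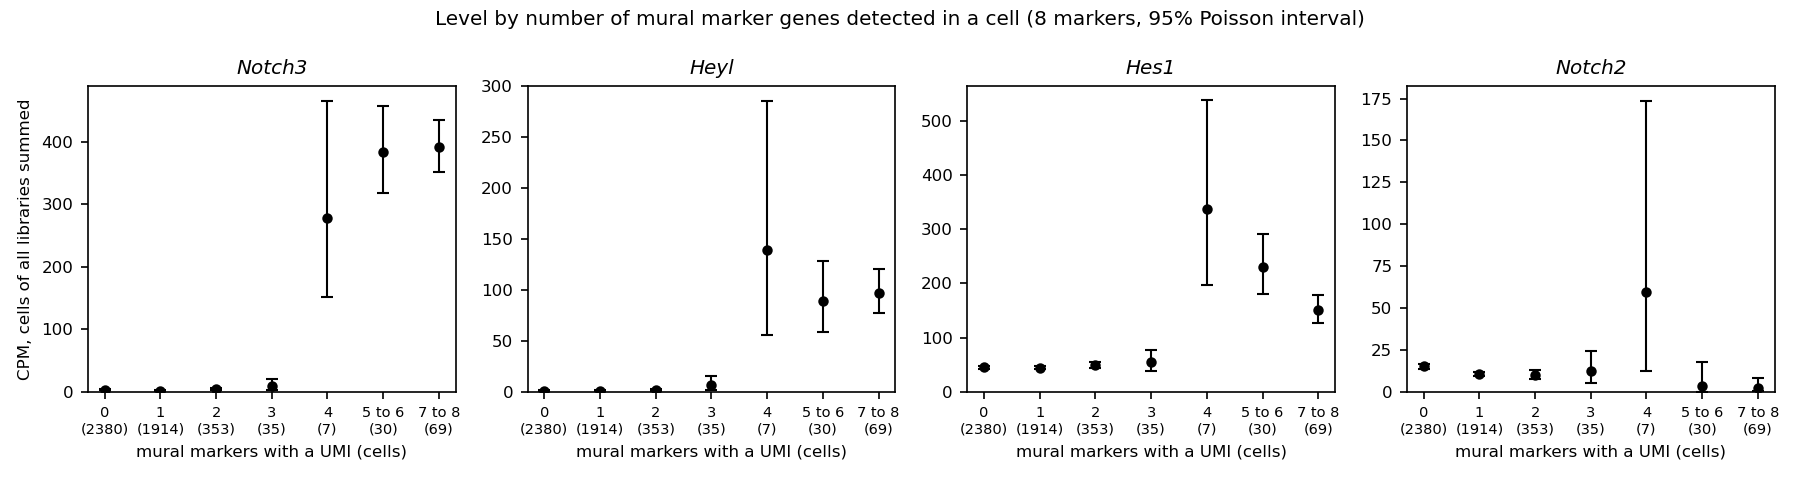
Level of 4 genes (y axis, CPM over the summed cells of all libraries) by the number of the 8 mural marker genes with a UMI in the cell (x axis, number of cells in brackets). Points are pooled values and bars 95% Poisson intervals. *Notch3*, *Heyl* and *Hes1* lie near the baseline up to 3 markers and higher from 4 markers on, while *Notch2* is at its lowest in cells with 7 or 8.

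Across classes, UMIs were summed per class and library and compared with the reference of the same library by the quasi-likelihood test of edgeR, with p adjusted over 9968 genes (Benjamini-Hochberg). The low-count filter let 5 of the 8 genes through (*Notch2*, *Notch3*, *Jag1*, *Hes1*, *Heyl*). *Notch3* and *Heyl* passed it through the mural-like sums, since in a fit of lining and reference cells alone the filter let only the other 3 through, so that no count over the 5 is read against the share over all genes. In mural-like cells *Notch3*, *Heyl*, *Hes1* and *Jag1* were called, 4 genes, all higher, and 15.7% of all tested genes were called, with 7.83% called higher. The log2 fold change of *Notch3* was 6.65 (SE 0.35, adjusted p = 5.93e-17, edgeR, higher in 2 of 2 libraries). The filter favoured this direction for *Notch3* and *Heyl*, so their calls in mural-like cells are not read as support. The fit rests on 2 libraries for this class, and in simulated data of this design 5% of genes changed 2-fold and 50% of genes changed 4-fold were recovered.

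*Notch2* (ENSMUSG00000027878, chromosome 3, 98013527 to 98150361, plus strand), a receptor widely expressed in mesenchyme, was distributed the other way. It was at 1.93 and 8.89 CPM in the mural-like cells of Tom+ injured libraries 1 and 2 and at 11.7 and 11.0 CPM in their reference fibroblasts. Only 3 UMIs were counted in all 82 mural-like cells (3.43 CPM, 0.706 to 10.0), against 13.6 CPM (12.4 to 15.0) over all reference fibroblasts. The difference did not pass the test (log2 fold change -1.66, SE 0.61, adjusted p = 0.078, edgeR). It did in 2 of 18 alternatives, with at least 5 cells per sum (adjusted p = 0.0267, edgeR) and without the highest doublet scores (adjusted p = 0.0372, edgeR). In the other 16 it did not pass (adjusted p up to 0.754, edgeR or DESeq2).

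*Notch1* (ENSMUSG00000026923, chromosome 2, 26457903 to 26516663, minus strand), the receptor known for its part in endothelium and blood cells, was sparse, with 350 UMIs over all kept cells. Over pooled cells it was at 19.4 CPM (11.3 to 31.1) in mural-like, 14.4 (7.89 to 24.2) in immune-like, 8.94 (4.09 to 17.0) in osteoblast-like, 4.64 (3.92 to 5.45) in reference and 2.81 (1.98 to 3.88) in lining cells. The intervals of mural-like and immune-like cells lay above that of the reference and overlapped each other. In the 6 endothelial-like cells 8 UMIs of *Notch1* were counted, but these cells came from 4 libraries with 1 to 3 each and entered no test.

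Among the ligands, *Jag1* (ENSMUSG00000027276, chromosome 2, 137081456 to 137116644, minus strand) was detected in most classes. It was at 54.1 and 40.0 CPM in the mural-like cells of Tom+ injured libraries 1 and 2 and at 12.3 and 13.3 CPM in the reference of the same libraries. In Tom+ injured libraries 3 and 4, with 6 mural-like cells each, no *Jag1* UMI was counted in that class. The log2 fold change against the reference was 1.49 (SE 0.45, adjusted p = 0.0167, edgeR, higher in 2 of 2 libraries). Without Tom+ injured library 1 the adjusted p was 0.591, and without library 2 it was 0.0932 (both edgeR).

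The second ligand, *Dll1* (ENSMUSG00000014773, chromosome 17, 15367354 to 15376872, minus strand), was near the limit of detection, with 36 UMIs in 4788 cells. Of these, 12 fell in lining fibroblasts (0.913 CPM, 0.472 to 1.59) and 8 in the far larger reference (0.251 CPM, 0.108 to 0.494). None fell in mural-like cells, where a count of 0 allows up to 3.43 CPM. *Dll1* did not pass the low-count filter in any comparison and its value from a fit without the filter is given only within the reference below.

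Of the target genes, *Heyl* (ENSMUSG00000032744, chromosome 4, 123233556 to 123249875, plus strand) had a distribution like that of *Notch3*. It was at 131.3 and 102.2 CPM in mural-like cells of Tom+ injured libraries 1 and 2, against 1.94 and 0.522 CPM in their reference. The log2 fold change was 6.34 (SE 0.58, adjusted p = 1.82e-09, edgeR), from 2 libraries. *Heyl* passed the low-count filter through the mural-like sums, where it was high, so this call is not read as support. Of the 44 mural-like cells with a *Heyl* UMI, 43 also had a *Notch3* UMI, in a class in which 78 of 82 cells had one. Among the reference fibroblasts 12 of 36 cells with *Heyl* had *Notch3*, against 80 of all 2542 cells.

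*Hes1* (ENSMUSG00000022528, chromosome 16, 30064384 to 30067796, plus strand), the most frequently counted of the 8 with 3049 UMIs, was present in every class. It was at 104.2 and 240.0 CPM in mural-like cells of Tom+ injured libraries 1 and 2, against 39.4 and 38.4 CPM in the reference, and the lowest mural-like value exceeded the highest reference value of all 9 libraries (80.7 CPM). The log2 fold change was 1.87 (SE 0.33, adjusted p = 3.25e-05, edgeR). Without Tom+ injured library 2 it was 1.32 (adjusted p = 0.0622, edgeR).

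*Hey1* (ENSMUSG00000040289, chromosome 3, 8663359 to 8667256, minus strand), with 101 UMIs in all, did not pass the filter. Its pooled level was 14.8 CPM (7.90 to 25.4) in mural-like cells and 1.66 CPM (1.24 to 2.17) in the reference.

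**Figure D2:**
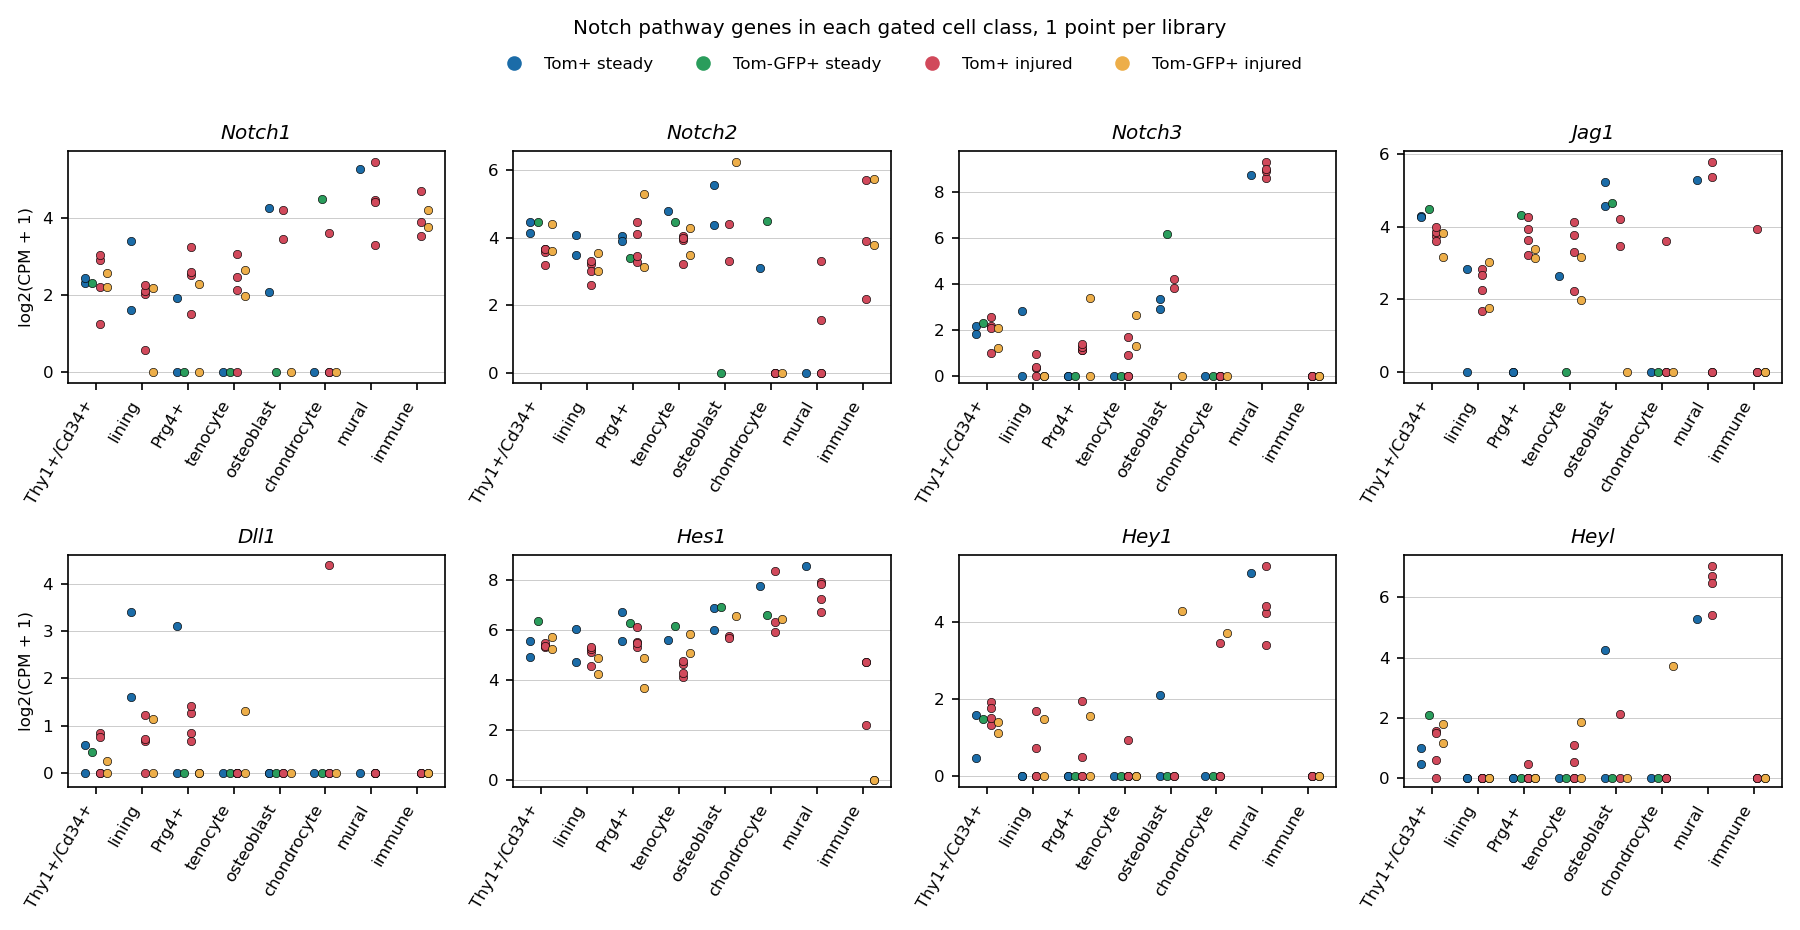
Level of the 8 genes (y axis, log2(CPM + 1)) in 8 cell classes (x axis), with 1 point for each library that had at least 5 cells of the class, coloured by group. Mural-like points stand apart for *Notch3* (382 to 631 CPM), and lining points are at 0 for *Heyl* in every library.

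The wider list of 44 other pathway genes, which holds further receptors, ligands, targets and the enzymes that process them, gave 28 genes tested. In mural-like cells 4 of these were higher and 2 were lower, and the median log2 fold change of the list was 0.03, beside -0.05 over all tested genes. Over all tested genes, 15.7% were called and 7.83% were called higher, and the count of the list is not read against these shares. The 4 genes of the list with the lowest adjusted p were all higher. *Dlk1*, a Delta-like protein without the domain that activates Notch receptors, was at 318.5 and 1413 CPM in Tom+ injured libraries 1 and 2 (log2 fold change 8.20, SE 0.74) and at 38.0 CPM, from 1 UMI, in the 6 mural-like cells of Tom+ steady library 2. *Nrarp*, a target gene and inhibitor of the pathway, was at 83.0 and 107 CPM (log2 fold change 6.76, SE 0.86) and at 0.439 CPM over all reference fibroblasts. Like *Notch3* and *Heyl*, it passed the filter through the mural-like sums, so its direction is not read as support. DESeq2 did not call it (adjusted p = 0.462). *Lfng*, a glycosyltransferase that tunes receptor preference for ligands, changed by 3.35 (SE 0.78) on the log2 scale, and the Deltex family ubiquitin ligase *Dtx3* by 1.34 (SE 0.19). The lower 2, named after their values were seen, were *Rbpj* itself, whose log2 fold change was -1.53 (SE 0.44), and the protease gene *Adam17* at -1.09 (SE 0.38). *Dlk1* and *Dtx3* were called in 18 of 18 alternatives. *Adam17* was lost in 7 of 18, among them DESeq2 (adjusted p = 0.0777), *Rbpj* without Tom+ injured library 1 or 2, and *Lfng* without Tom+ injured library 1 (adjusted p up to 0.184 and 0.318, edgeR).

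Genes whose levels ran most alike were sought over 45 class-by-library sums of at least 10 cells, among 8071 genes with a mean of at least 10 CPM. The sums share libraries and the correlations on log2(CPM + 1) are descriptive. For *Notch3* the closest were *Gucy1a1* (Pearson r = 0.86), *Myh11* (0.81) and *Higd1b* (0.80), of which the last 2 are markers of the mural gate. For *Heyl* they were *Notch3* itself (0.80), *Higd1b* (0.80) and *Myh11* (0.79). *Hes1* ran closest to *Ubtf* (0.83), *Pja1* (0.82) and *Klf9* (0.82), *Jag1* to *Enah* (0.72), *Dyrk2* (0.72) and *Fzd1* (0.69), and *Notch2* to *Brap* (0.78), *Gart* (0.77) and *Rab3d* (0.75). The sparse *Notch1*, *Hey1* and *Dll1* had closest correlations of 0.67 (*Washc2*), 0.64 (*Sfpq*) and 0.57 (*Ntrk3*).

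Lining fibroblasts, the *Prg4*-expressing cells at the joint cavity, were lower than the reference for *Jag1*, *Notch2*, *Notch3*, *Heyl* and *Hes1*, the 5 tested genes of the 8, and 36.8% of all tested genes were called, with 20.3% called lower. *Notch3* and *Heyl* entered this comparison through the mural-like sums, as above, and the count is not read against these shares. *Jag1* lay between 0 and 7.12 CPM in the 8 libraries with at least 10 lining cells (median 4.56) and between 7.98 and 21.2 CPM in the reference (median 13.3). The ranges did not overlap. Its log2 fold change was -1.79 (SE 0.29, adjusted p = 3.72e-06, edgeR).

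*Notch2* was at a median of 8.65 CPM in lining cells (5.10 to 15.9) and of 11.8 CPM in the reference (8.17 to 21.2), with a log2 fold change of -0.78 (SE 0.18, adjusted p = 0.00048, edgeR). *Notch3* was at 0 CPM in 4 of these 8 lining libraries. It was lower than in the reference of the same library in 7 of 8 and higher in Tom+ steady 2, at 6.14 against 2.58 CPM, which held 3 of the 7 lining UMIs (log2 fold change -2.40, SE 0.45, adjusted p = 3.98e-05, edgeR). *Heyl* was not counted in any of the 752 lining cells, which puts it at least 6.73-fold lower than the 1.54 CPM of the reference, with the floor of 3 counts set over the whole class (adjusted p = 0.000259, edgeR). *Hes1* was at 17.9 to 65.5 CPM in lining cells and 29.3 to 80.7 CPM in the reference, and its small difference lay at the threshold (log2 fold change -0.47, SE 0.19, adjusted p = 0.0489, edgeR). It no longer passed in 11 of 18 alternatives, with adjusted p from 0.0123 to 0.15 over all of them (edgeR or DESeq2). The lining cells also held mural marker RNA, with *Rgs5* in 50.7% and *Myh11* in 0.133% of cells, while *Notch3* was found in 0.798%. In simulated data of this design 62% of genes changed 2-fold were recovered.

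Of the wider list, 4 of 28 genes were higher and 6 lower in lining fibroblasts (median log2 fold change 0.03, and -0.03 over all tested genes). Over all 9968 tested genes, 1642 were called higher and 2023 lower (36.8% in all). The counts of the list are therefore not read as a result about the pathway. Its higher genes included the protease gene *Adam10* (log2 fold change 1.02, SE 0.12) and the gamma-secretase subunits *Psen2* (0.81, SE 0.15) and *Ncstn* (0.37, SE 0.09). *Dtx3* was lower (-0.65, SE 0.11). These 4 were called in 18 of 18 alternatives. Further gamma-secretase subunits, named after their values were seen, did not all go the same way. *Psenen* was higher (0.33, SE 0.09), *Aph1b* was lower (-0.69, adjusted p = 0.0126, edgeR) and *Aph1a* was not called (-0.05, SE 0.11). *Aph1b* was lost in 2 of 17 alternatives and *Psenen* in 1 of 18.

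In chondrocyte-like cells, where 17.6% of all tested genes were called, 1 was called. *Hes1* was at 325, 59.8 and 85.7 CPM in the 3 libraries with at least 10 such cells (Tom+ injured 3, Tom+ injured 4 and Tom-GFP+ injured 1), against 43.0, 40.3 and 51.7 CPM in their reference (log2 fold change 1.77, SE 0.41, adjusted p = 0.00142, edgeR, higher in 3 of 3 libraries). In the other 6 libraries, with 2 to 9 chondrocyte-like cells each, it was at 79.3 to 820.5 CPM. This call rests on the first of these libraries, without which the adjusted p was 0.400 (edgeR), and it was also lost when cells were gated after thinning (adjusted p = 0.674, edgeR).

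In immune-like cells, where 40% of all tested genes were called, *Hes1* was lower. It was at 25.6, 3.55 and 0 CPM in the 3 tested libraries, against 43.0, 40.3 and 36.3 CPM in the reference (log2 fold change -1.42, SE 0.55, adjusted p = 0.0374, edgeR). With size factors by DESeq2's method in edgeR the adjusted p was 0.056, and with stricter gates 0.082.

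None of the 5 was called in osteoblast-like cells (11.3% of all tested genes called), tenocyte-like cells (5.34%) or *Prg4*+ cells without *Clic5* and *Thy1* (5.53%) by edgeR, and at an unadjusted p under 0.05 there were 1, 1 and 2 of them. In osteoblast-like cells *Notch3* was at 17.7, 13.4, 9.08 and 6.51 CPM in the 4 tested libraries, from 1 to 4 UMIs each, and above the reference of the same library each time (3.59, 4.96, 3.48 and 2.58 CPM), with a log2 fold change of 1.55 (SE 0.61, adjusted p = 0.102, edgeR). It passed with at least 5 cells per sum (adjusted p = 0.0164, edgeR) and by DESeq2 (adjusted p = 0.0412). In *Prg4*+ cells the fold changes of *Notch3* and *Heyl* were -1.57 (SE 0.50, adjusted p = 0.0574) and -2.48 (SE 0.83, adjusted p = 0.0865, edgeR), from 8 UMIs and 1 UMI in 488 cells. In tenocyte-like cells *Notch3* was at -1.08 (SE 0.52, adjusted p = 0.319, edgeR).

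Over all genes tested in immune-like cells, 40% were called. Of the wider list, 6 of 28 genes were higher and 4 lower there (median log2 fold change 0.03, and -0.22 over all tested genes), counts not read as a result about the list. The 4 with the lowest adjusted p were *Lfng* (log2 fold change 5.07, SE 0.60), *Dtx3* (-2.57, SE 0.35), the gamma-secretase subunit *Aph1c* (3.45, SE 0.57) and the co-repressor *Spen* (1.83, SE 0.44). Over pooled cells *Lfng* was at 39.1 CPM in immune-like and 1.25 CPM in reference cells, and *Aph1c* at 24.7 and 2.63 CPM. Both may have passed the low-count filter only through the immune-like sums, where they were high, so their direction is not read as support. In osteoblast-like cells the ubiquitin ligase gene *Itch* was higher (0.93, SE 0.28) and *Ncstn* lower (-0.99, SE 0.20), and in tenocyte-like cells *Hes6* was higher (0.73, SE 0.18). The 4 calls in immune-like cells held in every alternative that tested them, while *Itch* was lost in 7, *Ncstn* in 3 and *Hes6* in 3 of 18, including stricter gates each time (adjusted p up to 0.947, 0.648 and 0.394, edgeR). None of the 28 was called in chondrocyte-like or *Prg4*+ cells by edgeR, with 3 and 2 at an unadjusted p under 0.05. Over all tested genes, 17.6% and 5.53% were called there.

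Within the reference fibroblasts, *Dpp4*+ fibroblasts were separated by *Dpp4*, *Pi16* and 4 further markers (867 of 2542 cells). Cells with these markers are known from the adventitia of vessels in many tissues. Of the 8 genes, 3 passed the filter and 1 was called, *Notch2*, where 15% of 8658 tested genes were called. *Notch2* was higher in *Dpp4*+ cells than in the other fibroblasts of the same library in 9 of 9 libraries (log2 fold change 0.58, SE 0.15, adjusted p = 0.0125, edgeR, and 0.00297 to 0.0388 over the alternatives). *Hes1* was lower in 8 of 9 libraries but did not pass (-0.38, SE 0.13, adjusted p = 0.060, edgeR).

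Each state of the joint was then given its own term, a choice made after their values were seen. In the 3 steady-state libraries (Tom+ 1, Tom+ 2 and Tom-GFP+), *Notch2* was at 33.3, 20.0 and 27.0 CPM in *Dpp4*+ cells and at 12.5, 13.2 and 13.8 CPM in the others. *Jag1* was at 27.2, 22.9 and 28.2 CPM in *Dpp4*+ cells and at 12.5, 13.2 and 12.2 CPM in the others. Both sets of values were fully separated.

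After injury *Jag1* was at 7.57 to 12.8 CPM in the *Dpp4*+ cells of the 6 libraries and at 6.12 to 17.4 CPM in the others, and the ranges overlapped. In a fit with both states, 2 of the 3 tested genes were called within the steady state (10.5% of all tested genes called). These were *Jag1* (log2 fold change 1.01, SE 0.29, adjusted p = 0.0282) and *Notch2* (0.96, SE 0.23, adjusted p = 0.0103, both edgeR). Within the injured state none was called (11% of all tested genes called), with 2 at an unadjusted p under 0.05, and *Jag1* was at -0.15 (SE 0.22). The change of the difference with injury was -1.17 (SE 0.36, adjusted p = 0.136, edgeR) for *Jag1*, which passed only without Tom-GFP+ injured library 1 (adjusted p = 0.0297, edgeR), and none of the 3 was called in that term (1.71% of all tested genes called). The steady-state call of *Jag1* was lost without any 1 of the 3 steady-state libraries (adjusted p = 0.115, 0.0839 and 0.185 without Tom+ 1, Tom+ 2 and Tom-GFP+, edgeR), and that of *Notch2* without Tom+ 1 or Tom-GFP+ (adjusted p = 0.119 and 0.0677, edgeR).

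*Notch3*, too sparse for the filter here, was lower in *Dpp4*+ cells. Its level was 0 to 1.28 CPM in these cells and 1.47 to 8.13 CPM in the other fibroblasts, lower in 9 of 9 libraries. Without the filter, 6 of the 8 genes were called, and 5 of them were lower in *Dpp4*+ cells, with *Notch3* at -2.70 (SE 0.47, adjusted p = 3.19e-07), *Notch1* at -1.12 (SE 0.31, adjusted p = 0.00559), *Heyl* at -2.04 (SE 0.64, adjusted p = 0.0217), *Hey1* at -1.91 (SE 0.60, adjusted p = 0.0237) and *Hes1* at -0.40 (SE 0.11, adjusted p = 0.00477, all edgeR). *Dll1* was at 0.27 (SE 1.29, adjusted p = 0.961, edgeR). In that fit 7.52% of 23727 genes were called and 4.2% were called lower. The median depth was higher in *Dpp4*+ than in other cells in 8 of 9 libraries (9204 against 8154 UMIs in Tom+ steady 1, for example), and the part of depth in these results was not tested.

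**Figure D3:**
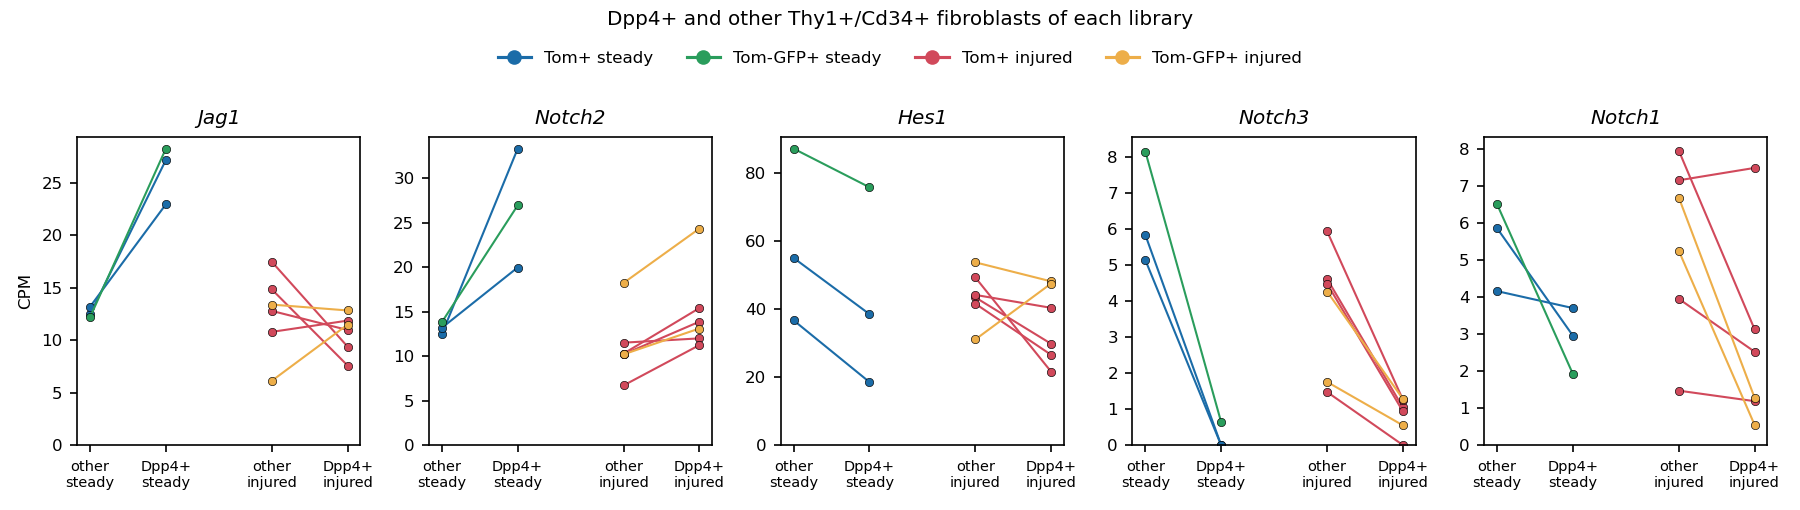
Level of 5 genes (y axis, CPM) in *Dpp4*+ and other *Thy1*+/*Cd34*+ fibroblasts, with 1 line per library joining the values of its cells, and steady-state libraries on the left and injured ones on the right of each panel. *Jag1* rises along all 3 steady-state lines and has no common direction in the 6 injured lines, while *Notch3* is lower in *Dpp4*+ cells along all 9.

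Over all genes tested in *Dpp4*+ cells, 15% were called. Of the wider list, 3 of 27 tested genes were higher and none lower there by edgeR (5 at an unadjusted p under 0.05). They were *Adam10* (log2 fold change 0.63, SE 0.10), *Dtx2* (0.59, SE 0.15) and *Rbpj* (0.50, SE 0.13). *Adam10* was called in 17 of 17 alternatives, *Dtx2* was lost with DESeq2 (adjusted p = 0.0523) and without the Tom-GFP+ steady library (0.0603, edgeR), and *Rbpj* without Tom+ injured library 2 (0.053, edgeR).

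Cycling fibroblasts, which were gated by *Mki67*, *Top2a* and 5 other genes, appeared after injury only (135 cells, none in the steady state). None of the 3 tested genes was called against non-cycling cells by edgeR, and none had an unadjusted p under 0.05, where 22.4% of 9815 genes were called. *Hes1* was at 56.6, 13.1, 40.7 and 89.7 CPM in cycling cells of the 4 libraries with enough of them and at 32.3, 41.2, 43.3 and 42.9 CPM in the others. Of the wider list 1 gene was higher, the co-repressor *Hdac1* (0.75, SE 0.20), and 3 were lower, *Dtx3* (-1.25, SE 0.16), *Psen2* (-1.48, SE 0.30) and *Hes6* (-0.78, SE 0.25). DESeq2 called neither *Hdac1* nor *Hes6* (adjusted p = 0.0563 and 0.0882), and leaving out Tom+ injured library 1 or 3 also ended both calls (adjusted p up to 0.258, edgeR). *Psen2* was lost with gates on thinned cells (adjusted p = 0.0556, edgeR).

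Injury was compared with the steady state in the reference fibroblasts of each lineage, in a fit of all 9 libraries over 12512 genes, of which 5 were among the 8 (*Notch1*, *Notch2*, *Notch3*, *Jag1*, *Hes1*). In Tom+ cells 0 of 5 was called by edgeR, 1 had an unadjusted p under 0.05, and DESeq2 called none, where 13.2% of all tested genes were called. *Notch2* was at 20.9 and 16.6 CPM in the steady state and at 11.7, 11.0, 11.8 and 8.17 CPM after injury. The groups did not overlap, but the log2 fold change of -0.84 (SE 0.29, adjusted p = 0.081, edgeR) did not pass in any of 20 alternatives (adjusted p from 0.0504 to 0.36). Both steady-state Tom+ libraries and injured library 1 carried an older form of the gene list than injured libraries 2 to 4, and with this form as a term the log2 fold change was -0.73 (adjusted p = 0.251, edgeR). *Jag1* was likewise separated, at 18.4 and 18.0 CPM against 12.3, 13.3, 11.1 and 14.8 CPM (-0.54, SE 0.25, adjusted p = 0.178, edgeR). *Hes1* was at 29.3 and 46.7 CPM against 39.4, 38.4, 43.0 and 40.3 CPM, and the groups overlapped. In simulated data of this design 10% of genes changed 2-fold and 80% of those changed 4-fold were recovered. The simulation gave every gene the same assumed spread, so it does not set the limit for a given gene. How well differences of this size are detected for these 5 genes was not tested.

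The share of *Dpp4*+ cells was 37.2% and 43.8% in the steady-state Tom+ libraries and 19.3% to 30.1% in the injured ones. Both sides of the gate were therefore also fitted alone, a choice made after the main results were seen. The steady-state *Jag1* values of *Dpp4*+ cells are those given above, so this fit is not independent of them. In *Dpp4*+ Tom+ cells 1 of 3 tested genes was called after injury, where 6.92% of all tested genes were called. *Jag1* fell from 27.2 and 22.9 CPM to 11.0, 7.57, 11.9 and 9.37 CPM (log2 fold change -1.35, SE 0.29, adjusted p = 0.0218, edgeR). The call was lost without Tom+ injured library 2 (adjusted p = 0.0535) and without either steady-state library (adjusted p = 0.156 and 0.099, edgeR). In cells outside the gate 0 of 5 was called by edgeR (9.47% of all tested genes called, none of the 5 at an unadjusted p under 0.05), and *Jag1* was at 0.09 (SE 0.35). Depth and the pseudogene share moved with injury in all of these libraries, and so did RNA of other classes. The summed level of the 8 mural markers in the reference was 138.7 to 150.2 CPM in the 2 steady-state Tom+ libraries and 111.7 to 410.0 CPM in the 4 injured ones, that of the 6 lining markers 465.7 to 466.7 and 514.0 to 1695 CPM, that of the 5 tenocyte markers 110.8 to 138.4 and 180.4 to 366.4 CPM, that of the 7 osteoblast markers 99.9 to 168.6 and 11.8 to 96.6 CPM, and that of the 7 cycling markers 0.497 to 1.10 and 41.2 to 471.7 CPM. The 6 markers that define the *Dpp4*+ gate were themselves at 1852 to 2398 CPM in the steady state and at 323.2 to 870.4 CPM after injury. Their part in these results was not tested.

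In Tom-GFP+ cells, 0 of 5 was called after injury by edgeR or DESeq2, where 1.91% of all tested genes were called, and 2 had an unadjusted p under 0.05. *Hes1* was at 80.7 CPM in the single steady-state library and at 51.7 and 36.3 CPM in the injured ones (log2 fold change -0.88, SE 0.29, adjusted p = 0.13, edgeR). *Jag1* was at 21.2 CPM against 7.98 and 13.2 CPM (-1.05, SE 0.35, adjusted p = 0.133, edgeR). The lone steady-state library was assumed to vary like the other groups, and in simulated data 0% of genes changed 2-fold and 20% of genes changed 4-fold were recovered. In this lineage the steady-state library carried the older form of the gene list and both injured libraries the newer one. The form cannot be told apart from injury here.

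Between the lineages, 0 of 5 was called after injury or in the steady state by edgeR (0.016% of all tested genes, 2 genes, in each). The Tom-GFP+ libraries came from mice matched to Tom+ libraries, but it is not given whether equal numbers mark the same mouse. With the number as a replicate block, 0 of 5 and 0 of all tested genes were called after injury by edgeR (1285 genes at an unadjusted p under 0.05). At an unadjusted p under 0.05 there were 0 of the 5 after injury and 1 in the steady state. This was *Hes1*, at 29.3 and 46.7 CPM in Tom+ and 80.7 CPM in Tom-GFP+ cells (log2 fold change -1.03, SE 0.29, adjusted p = 0.549, edgeR). The difference of the injury effect between lineages was called for none of the 5 by edgeR or DESeq2, with 1 at an unadjusted p under 0.05 by edgeR (0% of all tested genes called by edgeR, 226 genes at an unadjusted p under 0.05, and 1 gene called by DESeq2). For *Hes1*, the 1 gene, it was 0.92 (SE 0.36, edgeR).

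**Figure D4:**
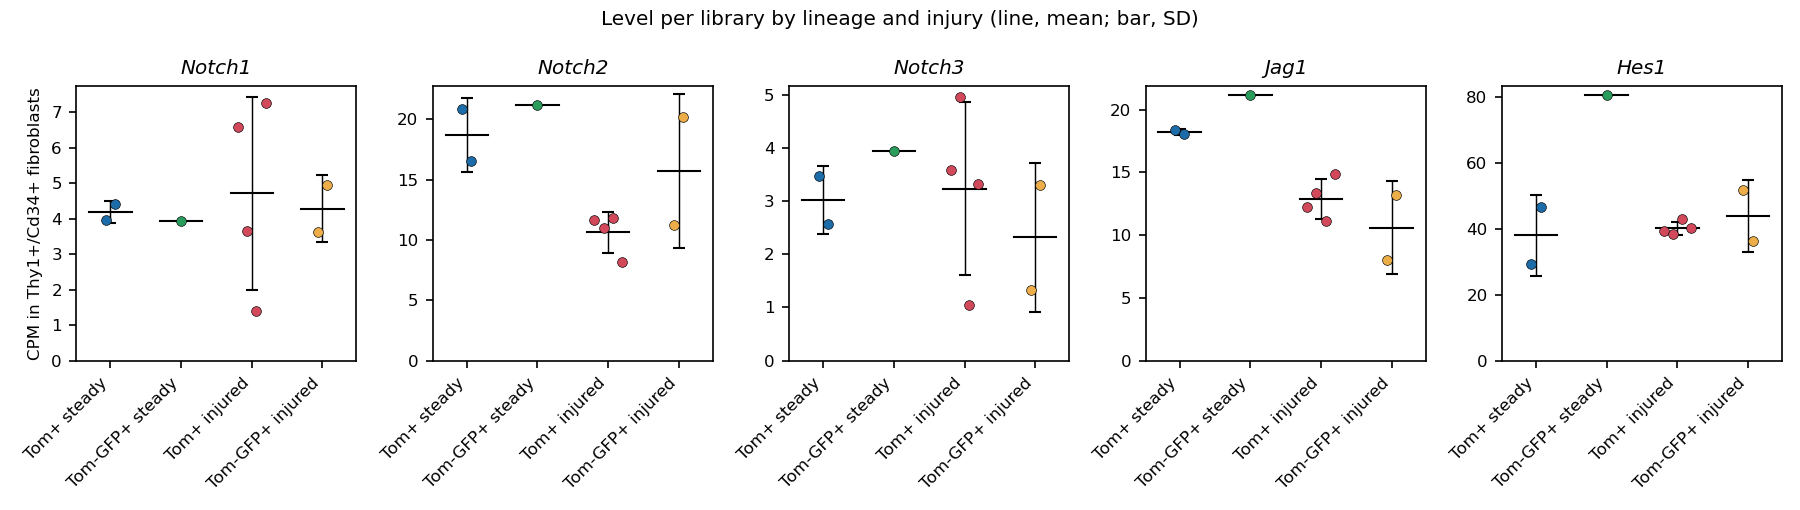
Level of 5 genes (y axis, CPM) in *Thy1*+/*Cd34*+ fibroblasts by group (x axis), with 1 point per library, a line at the mean and a bar of 1 SD where a group has more than 1 library. *Notch2* and *Jag1* of Tom+ cells are lower in each of the 4 injured libraries than in both steady-state libraries, and *Hes1* is highest in the single Tom-GFP+ steady-state library.

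Of the wider list, 1 of 31 tested genes was higher and 2 were lower after injury in Tom+ fibroblasts (median log2 fold change -0.19, and -0.03 over all tested genes). Over all tested genes, 13.2% were called in this comparison. *Rbpj* was at 107 and 94.2 CPM in the steady state and at 42.4 to 57.5 CPM after injury (log2 fold change -0.98, SE 0.21, adjusted p = 0.0191, edgeR). *Dtx2*, a Deltex ubiquitin ligase, fell by 0.96 (SE 0.23) on the log2 scale, and *Hes6*, a Hes relative that antagonises *Hes1*, rose by 0.87 (SE 0.23), from 16.9 and 12.1 CPM to 23.5 to 30.0 CPM. DESeq2 called *Rbpj* (adjusted p = 0.00564) but not *Dtx2* (0.0743) or *Hes6* (0.0656), and with the gene-list form as a term or the replicate number as a block the last 2 were lost as well. With either one of the 2 steady-state Tom+ libraries left out, none of the 3 was called, with adjusted p over all alternatives up to 0.149 for *Rbpj*, 0.205 for *Dtx2* and 0.254 for *Hes6*. None of the list was called in the Tom-GFP+ injury comparison or between the lineages by edgeR, with 8 genes at an unadjusted p under 0.05 in the former.

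In lining fibroblasts of the Gdf5 lineage, 0 of the 2 tested genes (*Notch2*, *Hes1*) was called after injury by edgeR, and neither had an unadjusted p under 0.05, where 4.17% of 9664 genes were called. *Notch2* was at 15.9 and 10.2 CPM in the steady state, from 5 UMIs each, and at 8.39, 8.91, 5.10 and 7.07 CPM after injury (log2 fold change -0.71, SE 0.49, adjusted p = 0.464, edgeR). *Lfng* was the only gene of the wider list called, lower after injury, at 12.7 and 12.3 CPM against 0.297 to 1.33 CPM from 1 to 3 UMIs per library (adjusted p = 0.0304, edgeR). It passed the low-count filter through the 2 steady-state sums, where it was high, so the filter favoured this direction and the call is not read as support. The call was lost in 5 of 15 alternatives, among them the gene-list form as a term and leaving out Tom+ injured library 2, 3 or 4 (adjusted p up to 0.181, edgeR). Markers of other classes moved with injury in these lining cells, at 356.1 to 794.2 against 31.3 to 103.4 CPM for the 5 tenocyte markers, 54.1 to 110.5 against 2.87 to 11.8 CPM for the 7 osteoblast markers 315.2 to 445.2 against 205.5 to 276.3 CPM for the 8 mural markers and 1116 to 1361 against 480.2 to 620.6 CPM for the 6 *Dpp4*+ markers, and their part was not tested.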

How the data were processed

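Cells of dissected knees were released with collagenase, sorted and processed with the 10x Genomics 5′ kit. The deposited values are raw UMI counts per gene and barcode, which the authors made with Cell Ranger on GRCm38.p6 according to the submitters' processing notes (release 3.0.2 in the headers of the newer matrices). Nothing was normalized before deposit. A barcode was kept if it had 500 genes and 1000 UMIs or more, with mitochondrial genes giving no more than 10% of them. The median depth of a library's cells was 8050.5 to 18567 UMIs, which limits sparse genes. Cells were gated by the number of class markers with a UMI (for example 5 of 8 mural markers, or 4 of 6 lining markers with at least 5 *Prg4* UMIs per 10000). Numbers of markers were set after the files were seen. Scrublet called 47 doublets, which were kept, and the highest 5% of scores were removed in an alternative. UMIs were summed per class and library (at least 10 cells) and tested with edgeR 4.0.16 (TMM, filterByExpr, quasi-likelihood F test, Benjamini-Hochberg over all genes tested, threshold 0.05), with library as block between classes. SE is the fold change divided by the root of F. All tests are two-sided. DESeq2 1.42.0, other filters, gates and scalings, and leaving out each library were alternatives. Fits were tested on simulated data, in which every gene was given the same assumed spread that was not estimated from these libraries. The members and lists were chosen with earlier results of these data known. All 8 genes, and up to 4 called genes of the wider list per comparison by lowest adjusted p, are named. Other genes are named only as markers, as pattern neighbours, for the endothelial-like cells or after their values were seen. The study describes the libraries of a group as separate mice, so p-values for injury and lineage measure the spread between mice and their libraries. The Tom-GFP+ mice were matched to Tom+ mice, which the main fits leave out. Between classes, the spread of a gene was estimated over the sums of all classes, within libraries. Mural-like cells gave 2 of these sums. Promoter windows came from RefSeq (GRCm38.p6) and gene positions from GENCODE.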

Additional observations from a re-analysis of the deposited data

Results flagged for a closer look

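Among the Tom+ injured libraries, 30 sets of 4 values were examined for a library far from the other 3, and 3 were found. The rule assumes continuous values, and any count against 0 in the other 3 meets it. No chance rate is therefore set beside this number. All are sparse genes. *Hey1* in *Prg4*+ cells without *Clic5* and *Thy1* was at 2.83 CPM in library 3, against 0 to 0.394 CPM in the others, from 2 UMIs. *Heyl* in the same class was at 0.394 CPM in library 1 and *Hey1* in tenocyte-like cells was at 0.911 CPM in library 1, each against 0 in the other 3.

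Cells that entered no comparison also carried signal above the pooled level of the reference fibroblasts. In the 6 endothelial-like cells *Notch1* was at 138.8 CPM (59.9 to 273.5) against 4.64 CPM, and *Hes1* at 138.8 CPM (59.9 to 273.5) against 45.1 CPM, each from 8 UMIs. In the 295 cells that met no gate, *Notch1* was at 11.7 CPM, *Notch3* at 18.8 CPM against 3.04, *Hes1* at 75.2 CPM and *Heyl* at 9.78 CPM against 1.54. Of the 50 *Notch3* UMIs in these cells, 11 lay in the 6 cells with 4 mural markers, 1 short of the gate, at 230.3 CPM, 6 in the 3 cells with 3 markers, at 440.6 CPM, 9 in the 11 cells with 2 markers, at 78.4 CPM, 4 in the 92 cells with 1 marker, at 4.29 CPM, and 20 in the 183 cells with no mural marker, at 12.9 CPM.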

How the results depend on the processing

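The number of the 8 genes called was recomputed in 271 alternatives over 15 comparisons and stayed within 1.5 times the reported count in 250. In most of these comparisons the reported count was 0, and 0 again counts as unchanged. A lost call can also stay within this limit, as that of *Hes1* in lining cells did. Leaving out 1 library gave 2 to 4 in mural-like cells (2 without Tom+ injured 2), 0 to 2 in chondrocyte-like cells (0 without Tom+ injured 3, 2 without Tom+ injured 2), 0 to 1 in *Prg4*+ cells (1 without Tom+ steady 2 or Tom-GFP+ injured 2), 1 to 2 for *Dpp4*+ cells (2 without Tom-GFP+ injured 2) and 0 to 1 for cycling cells (1 without Tom+ injured 2). With gates on thinned cells the count was 0 in chondrocyte-like cells, 1 in *Prg4*+ cells and 2 for *Dpp4*+ cells. It was 2 for *Dpp4*+ cells with stricter gates, and without the low-count filter it was 6 there and 1 in *Prg4*+ cells. With at least 5 cells per sum it was 1 in osteoblast-like and 1 in *Prg4*+ cells, with DESeq2 1 in osteoblast-like cells, with DESeq2's size factors in edgeR 0 in immune-like cells, and with a pairwise fit 3 in lining cells, where the filter let 3 through. The fits by state, chosen after seeing the data, gave 2 (steady), 0 (injured), and 1 for injury in *Dpp4*+ cells alone. The causes were not tested. Over all genes, counts of calls moved by more than 1.5 times in part of the alternatives. DESeq2 called 503 genes against 239 for injury in Tom-GFP+ cells and 51 and 23 against 2 and 2 between lineages (injured and steady). Without the low-count filter, 2839 against 1647 genes were called for injury in Tom+ cells.

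Fold changes were recomputed only for results with an unadjusted or adjusted p under 0.05 in the main fit, a choice that itself disfavours reversals. Of 481 recomputed fold changes, 27 lost a call and 13 gained one. Only 1 reversed: *Notch3* in tenocyte-like cells was at 0.57 with stricter gates (adjusted p = 0.998, edgeR). Same-numbered libraries correlated at 0.0735 and 0.141 between the states and at 0.291 and 0.109 between the lineages in their deviations from group means. With only 2 pairs each, these values do not settle whether the numbers pair the mice. With a replicate block, 0 of the 8 genes were called in each of the 3 comparisons that allow one. Depth limits *Dll1*, *Hey1* and *Heyl* most, with 36, 101 and 198 UMIs in all.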

Other observations

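Fibroblasts with both *Lrrc15* and *Adam12*, 457 of the 2542 reference cells, were found after injury only, and their values were not tested. *Hes1* was at 43.6, 23.9, 28.0 and 23.6 CPM in these cells of Tom+ injured libraries 1 to 4, against 32.2, 45.1, 48.2 and 43.3 CPM in the other reference cells of the same library. It was therefore lower in 3 of 4 and higher in library 1, and in the Tom-GFP+ injured libraries it was at 54.1 and 27.0 CPM against 48.8 and 39.3 CPM. *Jag1* was at 12.7, 13.2, 13.3 and 27.5 CPM against 11.4, 13.4, 10.3 and 12.5 CPM in the Tom+ libraries, with only library 4 far apart. *Notch2* was lower in these cells in 5 of 6 libraries, at 7.41 to 10.4 CPM against 8.23 to 13.9 CPM, and higher in Tom-GFP+ injured library 2, at 23.6 against 19.1 CPM.

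The 6 endothelial-like cells held other genes of the pathway that are known from vessels. The ligands *Dll4* and *Jag2* were at 104.1 and 52.1 CPM, the receptor *Notch4* at 69.4 CPM and the target gene *Nrarp* at 104.1 CPM. These values rest on 3 to 6 UMIs each.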
